A study of Mus musculus with 8 samples.

Results

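The genes described here are those of the NADPH oxidases that colon epithelium is known to use, with the gene of the inducible nitric oxide synthase. They were Nox1, Noxo1, Noxa1, Cyba, Duox2, Duoxa2, Nos2 and Rac1, taken by gene symbol with no threshold on their values, though the list was drawn up with earlier results of these data known. All 8 were found once each among the 55487 genes of the deposited table, and all 8 were among the 12760 genes high enough to be tested.

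The RNA came from intestinal epithelial cells of the colon of C57BL/6J mice, with 4 libraries labelled wild type (WT) and 4 labelled PIM1+/-, a heterozygous genotype of the serine/threonine kinase gene Pim1. Neither treatment nor age is given in the labels for any library. The sources used here do not state the structure of the altered allele, how the epithelial cells were separated, or whether each library came from its own animal. The p-values therefore measure only the spread among these samples, which may be technical. Values are in TPM, an abundance corrected for transcript length and scaled to a fixed sum per library, so that levels of different genes can be set side by side, but it keeps no read depth. The depth behind each value is therefore unknown. Means are given ± SD over n = 4 libraries, and log2 fold changes are PIM1+/- over WT on the log2(TPM + 1) scale, ± SE, which understates changes of low genes such as Nos2.

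NADPH oxidases move electrons from NADPH across a membrane to oxygen. Nox1 is the catalytic subunit best known from colon epithelium. It makes superoxide when paired with the membrane subunit p22phox (Cyba) and joined by the organizer Noxo1, the activator Noxa1 and the small GTPase Rac1. Duox2 is a larger oxidase of the same family that releases hydrogen peroxide at the mucosal surface and needs the maturation factor Duoxa2 to leave the endoplasmic reticulum. Nos2 makes nitric oxide from arginine and is known as a gene switched on by cytokines and microbial products.

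The libraries were first checked against their labels. Pim1 itself measured 5.72 to 8.83 TPM in WT and 5.64 to 7.97 TPM in PIM1+/- libraries and did not pass the test (log2 fold change -0.19 ± 0.15, limma adjusted p = 0.411), so its transcript level does not tell the genotypes apart. Of the 11 epithelial markers examined none was low, with Epcam at 1177 to 1402 TPM over the 8 libraries. Fibroblast and muscle markers summed to 2.51 to 4.34 TPM, and B and plasma cell markers to 0.38 to 1.11 TPM. T and NK cell markers were low but separated the genotypes, at a summed 9.22 to 21.9 TPM in WT and 38.8 to 98.0 TPM in PIM1+/- libraries. Posterior Hox genes, which are known to mark position along the gut, also separated them, at a summed 178 to 232 TPM in WT and 54.1 to 122.0 TPM in PIM1+/- libraries. Mitochondrial genes took 16.1% to 18.4% of TPM in WT and 12.5% to 13.7% in PIM1+/- libraries.

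In WT libraries the levels of the genes spanned a wide range. Rac1, which serves many processes besides the oxidases, was highest at 287 ± 18.5 TPM. Noxo1 (105 ± 6.19 TPM) and Cyba (100.4 ± 8.43 TPM) came next, and their libraries overlapped, so these neighbours in the order were not separated. Noxa1 followed at 42.5 to 45.7 TPM, apart from both sides. Duox2 (26.7 ± 2.02 TPM) overlapped Nox1 (20.0 ± 6.29 TPM), and Nox1 overlapped Duoxa2 (12.8 ± 3.03 TPM). Nos2 was lowest at 1.41 ± 1.21 TPM, above only 5.08% of the tested genes, whereas Rac1 lay above 96.9% of them. The catalytic subunit Nox1 was thus listed at a lower level than each of its 4 partners in every WT library.

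The comparison of PIM1+/- with WT libraries asks which of these transcripts differ between the genotypes. Nox1 and Cyba rose in PIM1+/- libraries, by 0.94 ± 0.24 and 0.39 ± 0.07 on the log2 scale, which is both subunits of the membrane core of the Nox1 oxidase. The organizer Noxo1 and the GTPase Rac1 did not pass the test, with estimates of 0.021 ± 0.11 and 0.065 ± 0.055. Noxa1, Duox2, Duoxa2 and Nos2 had higher means in PIM1+/- libraries without passing it, and for the last 3 a single library, PIM1+/- replicate 1, lay far above the others. The estimate of Noxa1 was 0.38 ± 0.12, close to that of Cyba, so the size of the change does not set the membrane core apart from this partner. Of the 8 genes, 2 were called higher and 0 lower by limma (adjusted p under 0.05), where 8.93% of all tested genes were called higher and 8.54% lower. At an unadjusted p under 0.05 there were 5, all with a higher mean in PIM1+/- libraries, where 16.3% of all tested genes were higher and 16.1% lower at that level (32.4% in either direction). All 4 PIM1+/- libraries lay above all 4 WT libraries for 5 of the 8 genes (Nox1, Noxa1, Cyba, Duox2 and Duoxa2), which held for 11.9% of all tested genes. The median log2 fold change was 0.49 over the 8 genes and -0.01 over all tested genes. With only 8 genes, picked with earlier results of these data known, these figures describe the group and test nothing about it.

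**Figure D1:**
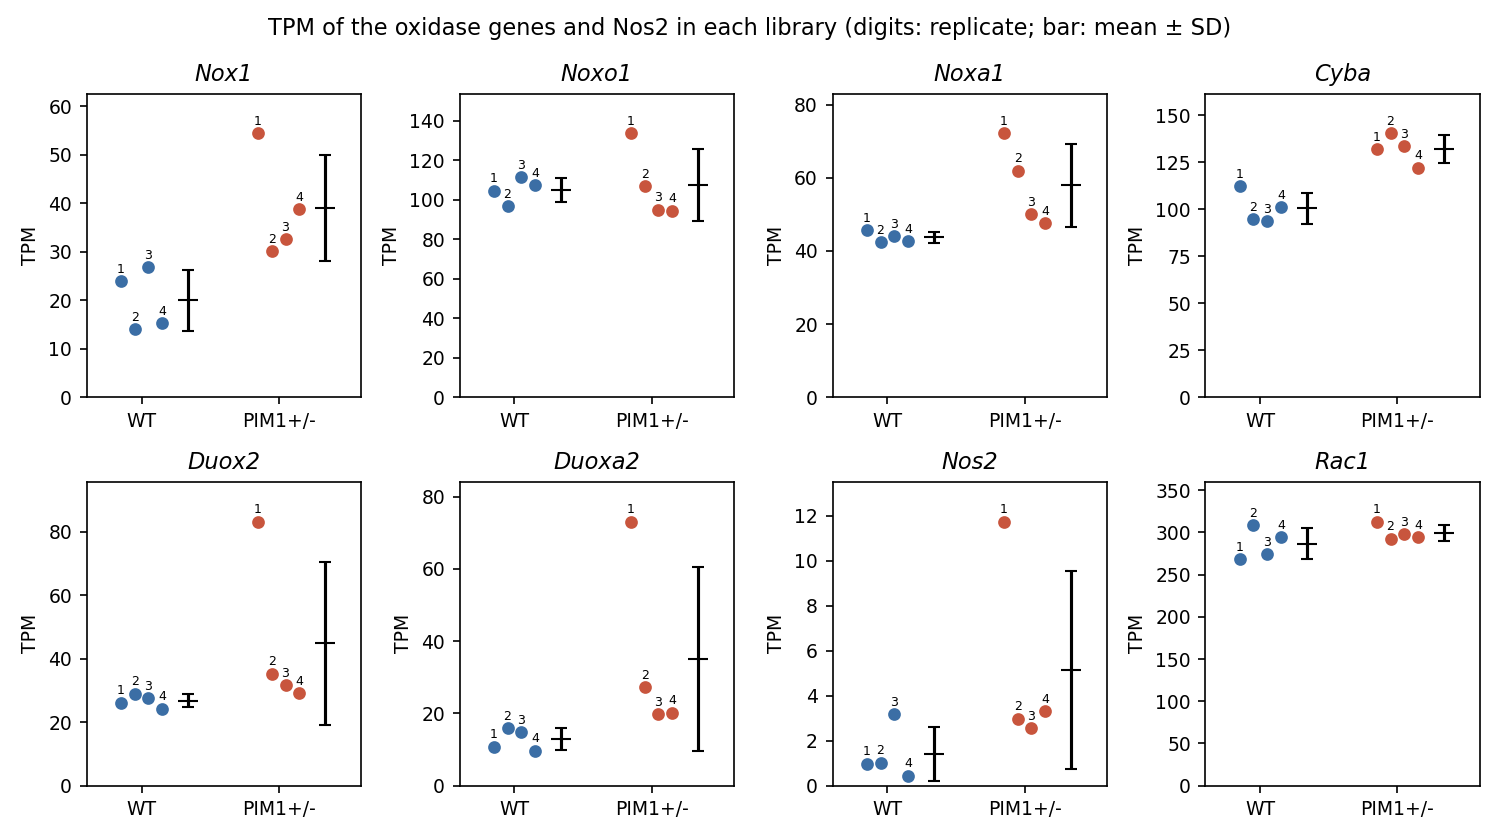
Each panel plots TPM (vertical axis, from 0) for 1 gene in the 4 WT (blue) and 4 PIM1+/- (red) libraries, with the replicate number above each point and the mean ± SD beside them. Nox1 and Cyba lie higher in all 4 PIM1+/- libraries, and replicate 1 stands far above the other PIM1+/- libraries for Duox2, Duoxa2 and Nos2.

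The Nox1 system is described first. Nox1 (ENSMUSG00000031257, chromosome X, 134086421 to 134221956 on GRCm38, minus strand) was at 23.9, 14.1, 26.8 and 15.3 TPM in WT libraries, given from replicate 1 to 4 here and below. In PIM1+/- libraries it was at 54.5, 30.1, 32.6 and 38.8 TPM. All 4 PIM1+/- libraries lay above all 4 WT libraries, with replicate 1 highest, while WT replicates 2 and 4 were lower than WT replicates 1 and 3. The mean was 1.95 times the WT mean (log2 fold change 0.94, limma adjusted p = 0.0259, with a 95% interval from 0.41 to 1.47). An exact permutation test on TPM gave p = 0.0286, two-sided, the smallest that 4 against 4 libraries allow. The call was lost without WT replicate 2 (adjusted p = 0.0548), WT replicate 4 (0.0703), PIM1+/- replicate 1 (0.0553) or PIM1+/- replicate 4 (0.052), with estimates from 0.77 to 1.09 over all 8 omissions, and also without a filter on low values (0.0781).

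Cyba encodes p22phox, the membrane partner that stabilizes Nox1 and several related oxidases. Cyba (ENSMUSG00000006519, chromosome 8, 122424776 to 122432930, minus strand) was at 112, 94.7, 93.8 and 101 TPM in WT libraries, and the PIM1+/- libraries were at 132, 140.5, 133 and 122 TPM. The genotypes did not overlap, and here replicate 1 was not the highest PIM1+/- library. The mean rose from 100.4 ± 8.43 to 132 ± 7.56 TPM, 1.31 times the WT mean (95% interval 0.24 to 0.55 on the log2 scale, limma adjusted p = 0.00607). Cyba kept its call with each library left out in turn, with estimates from 0.36 to 0.45. Its spread within each genotype was small, with an SD of 8.40% of the mean in WT and 5.73% in PIM1+/- libraries, against 31.4% and 28.1% for Nox1. Cyba thus shows a small step that is even across libraries, and Nox1 a larger one that is more variable.

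The cytosolic partners did not pass the test. Noxo1 (ENSMUSG00000019320, chromosome 17, 24696234 to 24700529), which tethers the complex at the membrane, was at 105, 96.7, 111 and 107 TPM in WT libraries, and at 134, 107, 94.9 and 94.5 TPM in PIM1+/- libraries. The ranges overlapped, and 2 PIM1+/- libraries lay below every WT library while replicate 1 lay above. For Noxo1 the estimate was 0.021 ± 0.11 (95% interval -0.22 to 0.26, limma adjusted p = 0.917), and it turned to -0.039 when TPM was rescaled without mitochondrial genes, to -0.018 without WT replicate 2 and to -0.088 without PIM1+/- replicate 1. Noxa1 (ENSMUSG00000036805, chromosome 2, 25085667 to 25095149), which stimulates electron flow through Nox1, was at 45.7, 42.5, 44.0 and 42.6 TPM in WT libraries, and at 72.2, 62.0, 50.1 and 47.5 TPM in PIM1+/- libraries. All 4 PIM1+/- values of Noxa1 lay above the narrow WT range. Noxa1 missed the threshold (log2 fold change 0.38 ± 0.12, limma adjusted p = 0.0582) and passed it only without PIM1+/- replicate 4 (0.0268) among the alternatives tried.

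Rac1 (ENSMUSG00000001847, chromosome 5, 143503634 to 143528036), the GTPase that in its active form joins the complex, was at 268, 309, 275 and 295 TPM in WT libraries, and at 313, 293, 298 and 295 TPM in PIM1+/- libraries. The genotypes overlapped and the estimate was 0.065 ± 0.055 on the log2 scale (limma adjusted p = 0.456, 95% interval -0.059 to 0.19), so that a change of the size estimated for Cyba lies outside this interval.

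**Figure D2:**
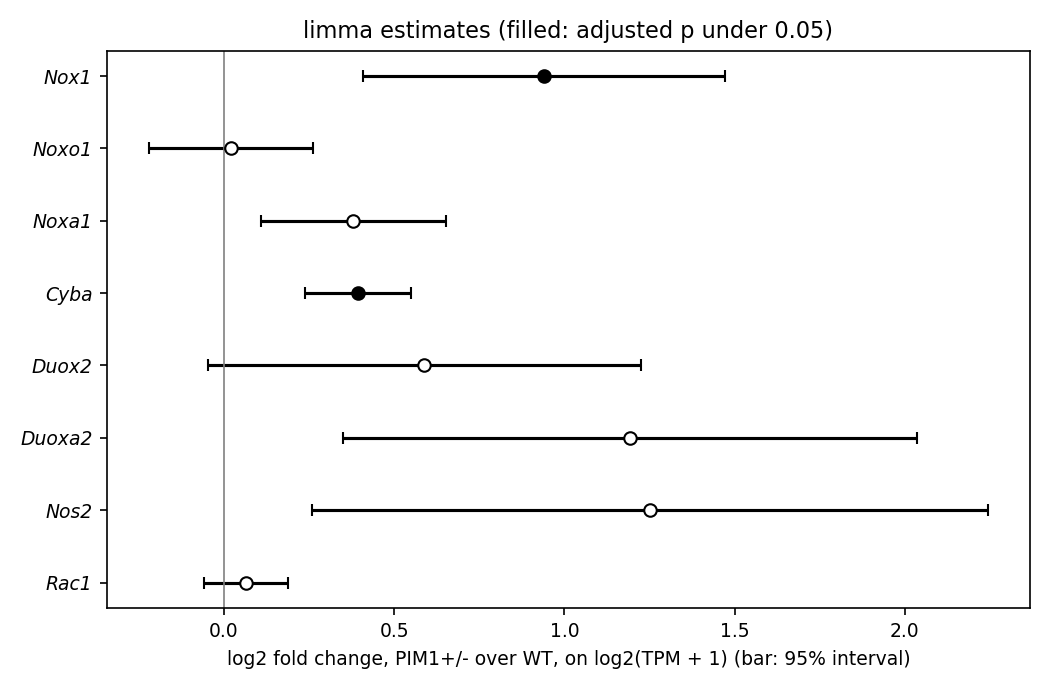
Points give the log2 fold change (horizontal axis, PIM1+/- over WT on log2(TPM + 1)) with its 95% interval for the 8 genes. Filled points passed an adjusted p of 0.05, which only Nox1 and Cyba did, and the intervals of Duoxa2 and Nos2 are the widest.

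Because TPM values of 1 library share a scale, ratios between partners within a library do not depend on how that library was scaled. These ratios were chosen after the values were seen. Noxo1 was listed at 4.38, 6.87, 4.16 and 7.02 times the level of Nox1 in WT replicates 1 to 4, and at 2.46, 3.56, 2.91 and 2.44 times in PIM1+/- replicates 1 to 4. The ratio of Noxo1 to Noxa1 was 2.40 ± 0.14 in WT (2.28 to 2.53) and 1.86 ± 0.11 in PIM1+/- libraries (1.72 to 1.99). Neither ratio overlapped between the genotypes, so organizer transcript was lower relative to both oxidase and activator transcript in each PIM1+/- library. The ratios of Noxa1 to Nox1 (1.64 to 3.02 in WT, 1.23 to 2.06 in PIM1+/-) and of Cyba to Nox1 (3.50 to 6.73 in WT, 2.42 to 4.67 in PIM1+/-) did overlap. Of 6 ratios examined 3 did not overlap, and among all pairs of tested genes above 0 in every library 25.3% of ratios did not, so a separated ratio is common in these data.

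**Figure D3:**
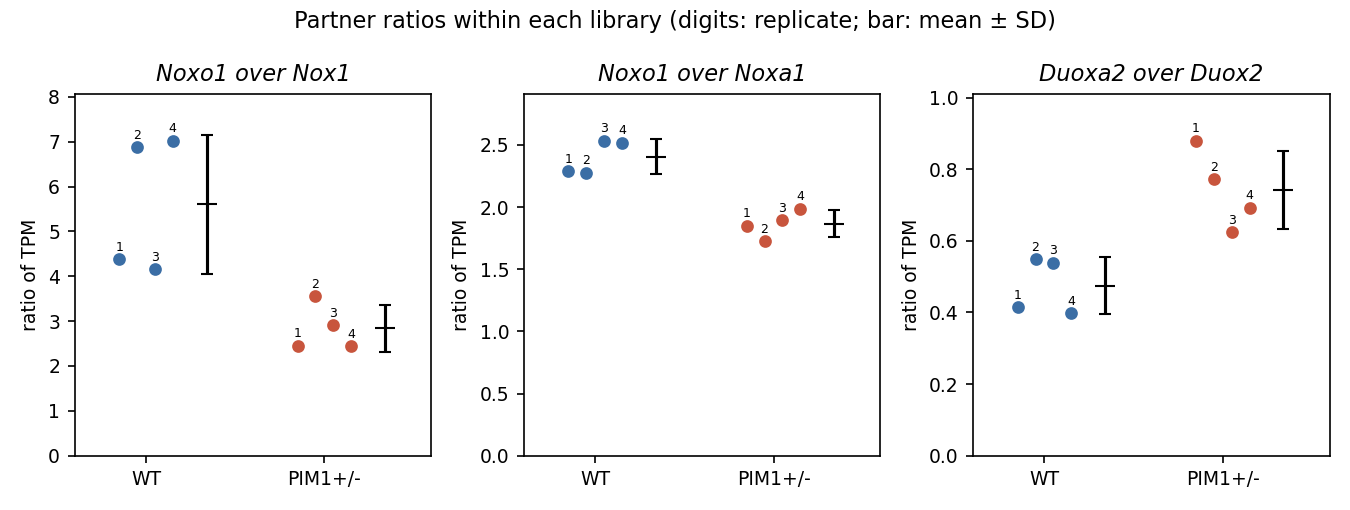
Each panel plots the ratio of TPM of 2 partner genes (vertical axis, from 0) in the 4 WT (blue) and 4 PIM1+/- (red) libraries, with the replicate number above each point and the mean ± SD beside them. Noxo1 relative to Nox1 and to Noxa1 is lower, and Duoxa2 relative to Duox2 is higher, in every PIM1+/- library than in any WT library.

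The 250 bases before the RefSeq starts of Nox1 and Cyba are printed because these transcripts rose, and those of Noxa1 because its window shares a motif with that of Nox1. They come from RefSeq on GRCm38.p6, at chrX:134111855-134112104 for Nox1, chr8:122432941-122433190 for Cyba and chr2:25095206-25095455 for Noxa1, all on the minus strand and written 5′ to 3′. The Nox1 window lies inside the GENCODE gene, before the start at 134111854 that 1 of its 5 transcripts uses, and not before the farthest start at 134221956. Capitals mark matches to any of 5 motifs searched on both strands, which were the interferon-gamma-activated site TTCNNNGAA, the interferon response element core GAAANNGAA, a kappaB form GGNNTTTCC, the AP-1 site TGANTCA and the TATA box TATAAA.
Nox1: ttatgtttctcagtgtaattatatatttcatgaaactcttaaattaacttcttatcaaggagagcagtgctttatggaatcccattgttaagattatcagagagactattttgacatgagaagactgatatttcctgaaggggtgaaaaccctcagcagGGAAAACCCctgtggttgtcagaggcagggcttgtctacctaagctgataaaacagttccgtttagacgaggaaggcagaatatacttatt
Cyba: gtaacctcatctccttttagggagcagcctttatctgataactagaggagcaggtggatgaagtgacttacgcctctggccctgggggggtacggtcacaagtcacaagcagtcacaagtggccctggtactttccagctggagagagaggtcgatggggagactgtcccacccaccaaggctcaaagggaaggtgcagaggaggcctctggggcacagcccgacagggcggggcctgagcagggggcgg
Noxa1: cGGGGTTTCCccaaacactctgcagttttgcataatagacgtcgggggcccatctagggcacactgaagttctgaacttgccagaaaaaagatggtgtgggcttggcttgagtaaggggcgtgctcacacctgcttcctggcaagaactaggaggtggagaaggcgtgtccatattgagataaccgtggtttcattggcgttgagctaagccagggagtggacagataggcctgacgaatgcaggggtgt
Nox1 held 1 match, of the kappaB form read on the other strand, at -91 to -83 from its start, and Noxa1 held 1 of the same form at -249 to -241. The kappaB form was present in 4.93% of the 32536 distinct windows of this length before RefSeq starts, the interferon-gamma-activated site in 7.04%, the interferon element core in 7.15%, AP-1 in 6.73% and the TATA box in 12.3%. The windows of Cyba and Noxo1 held no match to these letters, and no match overlapped another. These forms replaced an earlier pair, a looser kappaB form and an interferon element core longer by a base. The looser kappaB form occurred in a larger share of windows and matched in the Cyba window as well as in those of Nox1 and Noxa1. The lack of a match in Cyba, and the motif that sets Nox1 and Noxa1 beside each other, therefore depend on how the form is spelled. These are letters in a sequence, and no binding was measured. Base composition of the windows differed widely, with 38% G and C for Nox1, 60% for Cyba and 80% for Noxo1.

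The dual oxidase and its maturation factor are neighbours on chromosome 2, transcribed away from each other. Duox2 (ENSMUSG00000068452) lies at 122279247 to 122298449 on the minus strand and Duoxa2 (ENSMUSG00000027225) at 122298900 to 122302885 on the plus strand of GRCm38, with 450 bases between their GENCODE starts and 159 between the outermost RefSeq ones. Duox2 was at 26.1, 29.0, 27.6 and 24.3 TPM in WT libraries, and at 83.1, 35.3, 31.6 and 29.2 TPM in PIM1+/- libraries. All PIM1+/- libraries lay above all WT libraries, but replicates 2 to 4 only just, at 29.2 to 35.3 TPM, 1.20 times the WT mean, whereas replicate 1 was 2.60 times the mean of the other 3. For Duox2 the estimate was 0.59 ± 0.28 (limma adjusted p = 0.185, 95% interval -0.048 to 1.23), and without PIM1+/- replicate 1 it was 0.25 ± 0.087 (adjusted p = 0.1).

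Duoxa2 was at 10.8, 15.9, 14.9 and 9.68 TPM in WT libraries, and at 73.1, 27.3, 19.7 and 20.2 TPM in PIM1+/- libraries. Again the genotypes did not overlap, with replicate 1 at 3.26 times the mean of the other PIM1+/- libraries and those 3 at 1.75 times the WT mean. The log2 fold change of Duoxa2 was 1.19 ± 0.37 (limma adjusted p = 0.0566), just short of the threshold. It passed without PIM1+/- replicate 1, where the estimate fell to 0.77 ± 0.18 and the spread fell with it (adjusted p = 0.0302), and without PIM1+/- replicate 4 (1.37, adjusted p = 0.0499). Both genes had an exact permutation p of 0.0286 on TPM.

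Within libraries the pair did not keep one proportion across the genotypes. The ratio of Duoxa2 to Duox2 was 0.414, 0.549, 0.539 and 0.399 in WT and 0.880, 0.773, 0.624 and 0.692 in PIM1+/- replicates 1 to 4, with no overlap, so that every PIM1+/- library held more Duoxa2 for each unit of Duox2. Unlike the levels, this ratio did not have replicate 1 far from the rest.

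The 250 bases before the RefSeq starts of this pair are printed because both genes were highest in the same library. On GRCm38.p6 they are at chr2:122298228-122298477 on the minus strand for Duox2 and at chr2:122298650-122298899 on the plus strand for Duoxa2. The Duox2 window lies before a RefSeq start at 122298227, at which 0 of the 3 GENCODE transcripts of Duox2 start. All 250 of its bases lie inside the RefSeq model of Duox2, and 222 inside the GENCODE gene. The Duox2 window is thus not the stretch between the genes as RefSeq draws them, and it is not read here as the Duox2 promoter. Of the Duoxa2 window, 91 bases lie inside the RefSeq model of Duox2. Capitals mark matches to the same 5 motifs.
Duox2: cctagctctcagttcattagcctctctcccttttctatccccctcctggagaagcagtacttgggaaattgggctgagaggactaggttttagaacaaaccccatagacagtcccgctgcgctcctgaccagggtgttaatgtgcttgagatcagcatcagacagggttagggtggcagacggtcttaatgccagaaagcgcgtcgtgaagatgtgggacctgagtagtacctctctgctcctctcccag
Duoxa2: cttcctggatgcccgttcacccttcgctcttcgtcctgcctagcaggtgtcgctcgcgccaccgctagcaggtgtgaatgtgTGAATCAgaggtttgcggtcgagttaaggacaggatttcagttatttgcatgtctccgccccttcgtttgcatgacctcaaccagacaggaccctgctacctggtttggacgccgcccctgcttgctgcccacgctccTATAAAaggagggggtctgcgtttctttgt
The Duoxa2 window held an AP-1 match at -168 to -162 and a TATA box at -30 to -25. The Duox2 window held no match to any of the 5, which, as it lies within the gene, says nothing of the Duox2 promoter. Duoxa2 and Nox1 shared no motif in the forms printed. Windows before RefSeq starts were available for 6 of the 8 genes, not for Nos2 and Rac1.

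Nos2 (ENSMUSG00000020826, chromosome 11, 78920787 to 78960254, plus strand) was at a low level throughout. It was at 0.97, 1.02, 3.18 and 0.45 TPM in WT libraries, and at 11.7, 2.97, 2.54 and 3.32 TPM in PIM1+/- libraries. The genotypes overlapped, because WT replicate 3 lay above PIM1+/- replicates 2 and 3. PIM1+/- replicate 1 was 3.99 times the mean of the other PIM1+/- libraries, the farthest of the 8 genes. For Nos2 the estimate was 1.25 ± 0.44 on the log2 scale (limma adjusted p = 0.0823, exact permutation p = 0.0857, two-sided). It passed the threshold only without WT replicate 3 (1.56, adjusted p = 0.0479) and was 0.83 (adjusted p = 0.132) without PIM1+/- replicate 1.

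PIM1+/- replicate 1 was the highest PIM1+/- library for 7 of the 8 genes, all except Cyba, and the highest of all 8 libraries for the same 7. How often this held over all tested genes was not counted, and for Rac1 the margin was small (313 against 309 TPM in WT replicate 2). By Dixon's criterion, a different measure, PIM1+/- replicate 1 stood apart above the other PIM1+/- libraries for 1.80% of all tested genes. The share was 0.274% to 0.839% for PIM1+/- replicates 2 to 4. Among WT libraries the same share ran from 0.517% to 1.61%, with WT replicate 3 nearly as high. PIM1+/- replicate 1 also had the lowest level of Hoxb13, a posterior Hox gene, at 26.6 TPM. Hoxb13 was at 56.7 to 60.5 TPM in PIM1+/- replicates 2 to 4 and 103 to 137 TPM in WT. The non-epithelial markers of PIM1+/- replicate 1 were not extreme, with a mean log2(TPM + 1) of 1.05 where the other PIM1+/- libraries ran from 0.933 to 1.18. The part of position along the colon or of other cells in the values of this library was not tested.

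**Figure D4:**
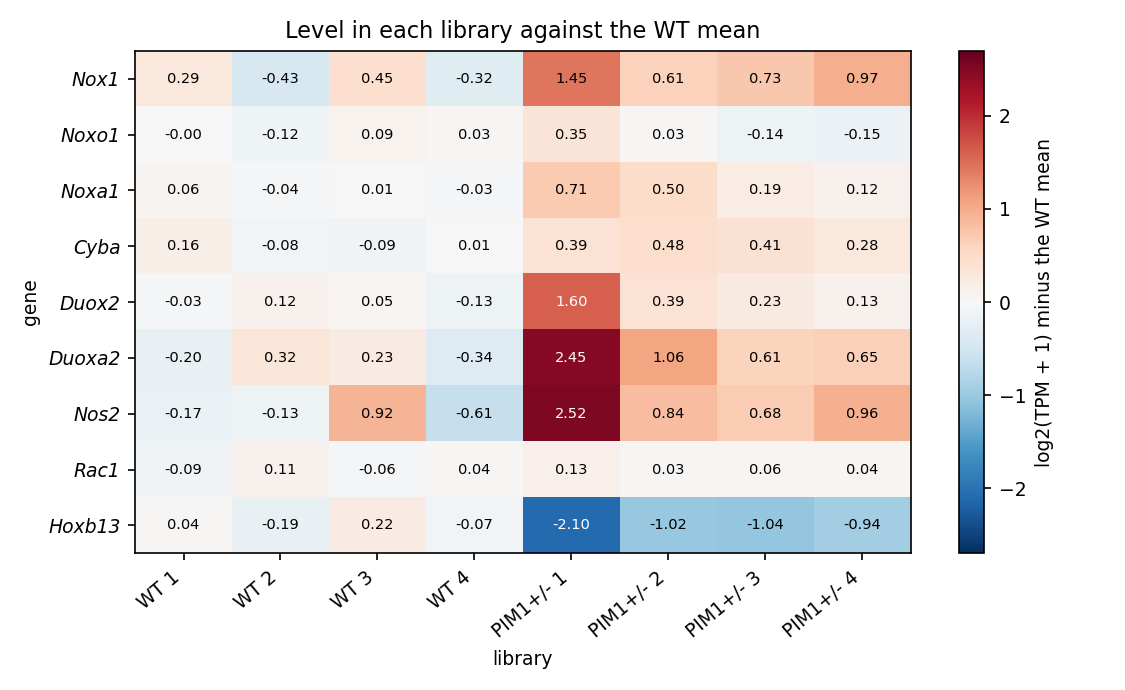
Colours and printed values give log2(TPM + 1) of each gene (rows) in each library (columns) minus the mean of the 4 WT libraries. PIM1+/- replicate 1 has the strongest red for Nox1, Duox2, Duoxa2 and Nos2 and the strongest blue for Hoxb13, while Cyba is even across the PIM1+/- libraries and Rac1 is near 0 in all 8.

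Genes with profiles most like those of the oxidase genes were sought over the 8 libraries, by the root mean square difference of log2(TPM + 1) after each gene was centred on its own mean, among tested genes with a mean of at least 5 TPM. The nearest to Nox1 was Shfl, an interferon-induced antiviral gene (difference 0.188), which measured 2.37 to 5.50 TPM in WT and 6.39 to 9.62 TPM in PIM1+/- libraries, followed by Clca3b (0.202) and the fatty acid desaturase gene Fads1 (0.219). Nearest to Duox2 were Ctnnal1 (0.142), Tnip3, an inhibitor of NF-kB signalling (0.152), and Donson, a replication fork gene (0.169). Nearest to Duoxa2 were the interferon-induced Mx1 (0.241), Gmppb (0.261) and Ptpro (0.287). For Nos2 the nearest gene was Duoxa2 (0.336) and the next Nox1 (0.449), at larger distances than for the other genes.

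The nearest to Cyba were Zup1 (0.0498), Tmem184b (0.0577) and Sccpdh (0.0607), and to Noxa1 they were Adss (0.0693), Plxna1 (0.0826) and Pcyt1a (0.083). Noxo1 had Mettl14 (0.0423), Pkn2 (0.0581) and Sbno1 (0.0597) nearest, and Rac1 had Ndufb3 (0.0297), Pgs1 (0.0314) and Flii (0.0339). Distances are smaller for these genes because they vary less. Likeness within the group was uneven. Of the genes eligible as neighbours, 210 were nearer to Duox2 than its own maturation factor Duoxa2, and 2737 were nearer to Nox1 than its organizer Noxo1.

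The other oxidase genes of the family were mostly near 0. Of 10 further subunits and assembly factors 3 were high enough to test, and limma called 0 of them, against 17.5% of all tested genes. At an unadjusted p under 0.05 there was 1, against 32.4% of all tested genes. Nox3, the oxidase of the inner ear, was listed at 0 in every library. Nox4, Duox1 and Duoxa1, the other non-phagocyte members, reached at most 0.39, 0.22 and 1.32 TPM. Cybb, the catalytic subunit of phagocytes, was at 0.06 TPM or below in all 8 libraries, and its organizer Ncf1 at 0.97 TPM or below. Ncf4 reached 2.05 TPM.

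Cybc1, a chaperone for the phagocyte oxidase, did not pass (log2 fold change -0.015 ± 0.07, limma adjusted p = 0.916), and the blood cell GTPase Rac2 was at 0.64 to 2.59 TPM (0.49 ± 0.24, adjusted p = 0.204). The level of Cyba was thus measured where Cybb, its phagocyte partner, was nearly undetected. Of 18 myeloid markers 7 were high enough to test and 3 of them rose, where 8.93% of all tested genes were called higher. These were the complement gene C1qa, at 0.25 to 1.05 TPM in WT and 1.22 to 7.54 TPM in PIM1+/- libraries, the pan-leukocyte gene Ptprc, at 1.27 to 2.27 and 2.42 to 5.33 TPM, and the lipopolysaccharide co-receptor gene Cd14, at 23.3 to 27.6 and 33.9 to 45.7 TPM. The summed level of the 18 was 86.5 to 116 TPM in WT and 91.6 to 115 TPM in PIM1+/- libraries, but most of it came from Ly6g, at 56.4 to 83.1 and 38.9 to 63.4 TPM, so the sum does not show the markers that rose. The granulocyte genes S100a9 and Elane were at 0 in every library, unlike Ly6g of the same list, so the markers do not all go one way. Mpo and S100a8, also granulocyte genes, were at 0 in every WT library and reached at most 0.37 and 0.56 TPM in PIM1+/- libraries. The part of myeloid cells in the values of the oxidase genes was not tested. In bulk RNA, fewer cells of a type and less RNA per cell cannot be told apart.

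Genes that supply or limit nitric oxide synthesis were examined as a list of 26, of which 20 were tested. Of these 3 rose and 1 fell, where 17.5% of all tested genes were called in either direction, and the median was 0.11. Ddah1, which clears methylated arginines that inhibit nitric oxide synthases, rose from 16.1 to 22.6 TPM in WT to 29.8 to 39.3 TPM in PIM1+/- libraries (0.80 ± 0.12, limma adjusted p = 0.00291). The arginine transporter gene Slc7a1 (0.44 ± 0.12) rose, and Ass1, which rebuilds arginine from citrulline, fell by 0.29 ± 0.09 on the log2 scale. Of the other synthases Nos1 was at 0.01 TPM or below and Nos3 at 0.04 TPM or below, so Nos2 was the synthase gene with the most transcript. Arg2, the arginase that competes for arginine, did not pass (0.45 ± 0.27, adjusted p = 0.285).

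Of 17 genes for the removal of superoxide and peroxide 15 were tested, with a median of 0.06. By limma 0 rose and 2 fell, where 8.93% of all tested genes were called higher and 8.54% lower. At an unadjusted p under 0.05, 4 were higher and 2 lower, against 16.3% and 16.1% of all tested genes. Prdx6, a peroxiredoxin, went from 1401 to 1613 TPM in WT to 600 to 889 TPM in PIM1+/- libraries (-0.98 ± 0.12, limma adjusted p = 0.000897). Catalase (Cat), which breaks down hydrogen peroxide, went from 48.8 ± 4.23 to 39.1 ± 4.26 TPM (-0.31 ± 0.09, adjusted p = 0.043), with overlapping libraries. Of 24 genes of the Rac cycle and related GTPases 20 were tested, with a median of 0.10. At an unadjusted p under 0.05, 8 were higher and 0 lower, against 16.3% and 16.1% of all tested genes. By limma 4 rose and 0 fell, against 8.93% and 8.54% of all tested genes. They were Chn2, a Rac-inactivating chimaerin (0.95 ± 0.16), the Rac activator Vav3 (0.58 ± 0.13), the GTPase Rac3 (0.45 ± 0.12) and the blood cell inhibitor Arhgdib (0.86 ± 0.25, at 0.62 to 4.42 TPM over the 8 libraries).

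Factors known to act on Nos2 or Duox2 were a list of 11, all tested. By limma 5 rose and 0 fell, where 8.93% of all tested genes were called higher and 8.54% lower. At an unadjusted p under 0.05, 5 were higher and 2 lower, against 16.3% and 16.1% of all tested genes. Irf1, a factor of the interferon response, went from 84.4 ± 9.38 to 120 ± 2.33 TPM (log2 fold change 0.51 ± 0.08). Irf9 and Stat2 rose by 1.55 ± 0.10 and 1.67 ± 0.12. For these 3 genes every PIM1+/- library lay above every WT library, which held for Duox2 as well but not for Nos2. The same held for 11.9% of all tested genes. PIM1+/- replicate 1 was the highest library for all 3, with Stat2 at 77.08 TPM there and at most 57.65 TPM in the other PIM1+/- libraries. Of 12 genes known to be induced in epithelium by microbes 8 were tested, with Saa3 higher (1.83 ± 0.46) and Saa1 lower (-0.48 ± 0.12). Over all tested genes 17.5% were called in either direction.

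Levels of other genes that moved with genotype were also entered in the fit for Nox1 and Cyba. With the mean level of non-epithelial markers as a covariate the estimates were 1.18 ± 0.59 and 0.43 ± 0.18 (limma adjusted p = 0.483 and 0.393), and with that of posterior Hox genes 0.62 ± 0.40 and 0.34 ± 0.12 (adjusted p = 0.607 and 0.319). Both covariates separate the genotypes fully, at 0.600 to 0.792 in WT against 0.933 to 1.18 in PIM1+/- libraries for the markers and 1.98 to 2.11 against 1.24 to 1.78 for the Hox genes, so their share and that of genotype cannot be told apart here. Of the posterior Hox genes 6 were tested and 4 fell, where 8.54% of all tested genes were called lower. They were Hoxb13 (-1.27 ± 0.24), Hoxd13 (-1.10 ± 0.28), Hoxa10 (-0.75 ± 0.18) and Hoxa13 (-0.74 ± 0.19). Of 8 tested T and NK cell markers 6 rose, where 8.93% of all tested genes were called higher.

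**Figure D5:**
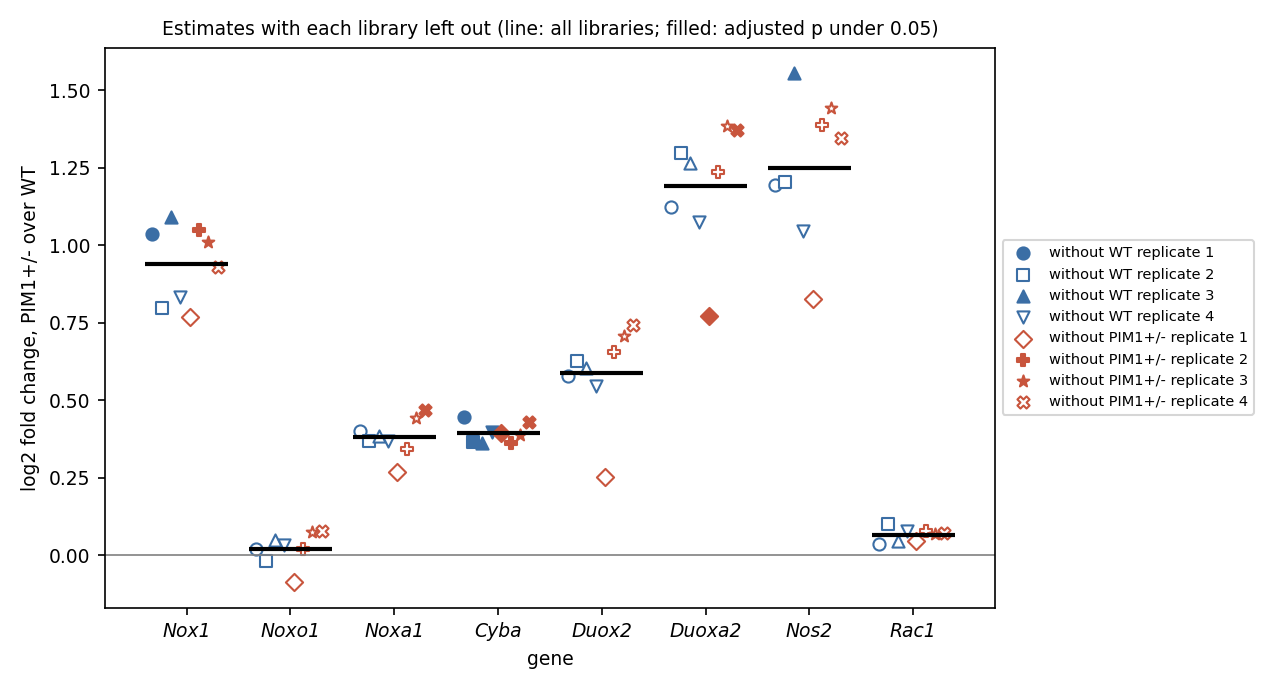
For each gene (horizontal axis) the symbols give the log2 fold change (vertical axis, PIM1+/- over WT) with 1 library left out, blue for WT and red for PIM1+/- libraries, and the black line gives the value from all 8. Filled symbols passed an adjusted p of 0.05, which all 8 do for Cyba and 4 of 8 for Nox1, and the open or filled diamond without PIM1+/- replicate 1 lies lowest for Nox1, Noxo1, Noxa1, Duox2, Duoxa2 and Nos2.

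Some of these genes overlap others on the opposite strand, with the strand setting of the counting not given in the sources used here. Under the exons of Noxo1 2122 bases lie within Tbl3 (10.4 TPM in WT, 12.5 TPM in PIM1+/-), under those of Duoxa2 682 bases within Duoxa1, under those of Nox1 399 bases within Cstf2 (16.6 and 21.4 TPM) and under those of Cyba 1039 bases within Gm20388 (7.59 and 8.35 TPM). Rac1 overlaps Daglb by 2309 bases. Noxa1 has 50 exon bases within Entpd8, at 90.7 TPM in WT and 98.4 TPM in PIM1+/- libraries. How reads in these stretches were divided is unknown, and no overlapping gene was found for Duox2 or Nos2.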

How the data were processed

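RNA of colon epithelial cells was extracted with TRIzol and made into Illumina libraries, per the labels' protocols. The authors deposited 1 table of TPM per gene, made with RSEM per the design text. HISAT2, StringTie, edgeR and the build GRCm38.p6 are named in the submitters' processing notes, with annotation, strand setting and filters not given in the sources used here. Since TPM keeps no depth, the number of libraries sets the precision, and a shift in a few abundant transcripts moves every other value.

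The 12760 genes that reached 1 TPM in 4 or more libraries were tested two-sided on log2(TPM + 1), with limma 3.58.1 (R 4.3.3, trended empirical Bayes, all 8 libraries), Benjamini-Hochberg adjustment over all of them and a threshold of 0.05. The script was tested on simulated data. Exact permutation tests used TPM of single genes. Coordinates came from GENCODE M21 on GRCm38. All per-sample columns were used. The named genes are the 8 genes, Pim1, the other oxidase genes, up to 4 called members of each list by p, and 3 nearest profiles per gene. Some genes this rule would name are not reported here. S100a8, S100a9, Elane, Mpo, Epcam, Ly6g, Arg2, Nos1, Nos3, the sequence motifs and the partner ratios were chosen after their values were seen. A first search with a looser kappaB form and a longer interferon element core was replaced, with its matches already seen, because of a limit on the length of letter patterns and not for its matches. The members and lists were chosen with earlier results of these data known. Same-numbered libraries are not stated to be paired, and the correlations of their deviations ran from -0.136 to 0.032. Alternatives were a pseudocount of 0.1, no filter, a stricter filter (mean of 5 TPM), no trend, other scalings, a replicate block, the marker covariates and leaving out each library.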

Additional observations from a re-analysis of the deposited data

Results flagged for a closer look

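Values of a single library stood apart from the other 3 of its genotype where the gap to the nearest, divided by the whole range, exceeded Dixon's 95% critical value, which chance alone meets in about 1 of 20 groups of 4. PIM1+/- replicate 1 stood apart as the highest for Duox2 (0.887), Duoxa2 (0.858) and Nos2 (0.915), and for their profile neighbours Ctnnal1 (0.957), Donson (0.901), Gmppb (0.944) and Ptpro (0.869), which were picked for that likeness. The same library was the lowest for Hoxb13 (0.889). WT replicate 2 was the highest WT library for Rac2 (0.897) and Gmppb (0.915), WT replicate 3 for Prdx6 (0.86), and WT replicate 1 for Zup1 (0.908) and Tmem184b (0.914). No explanation was tested for these values.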

How the results depend on the processing

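Cyba stayed higher and past the threshold under every alternative except the 2 covariates, and Nox1 lost its call under those, without a filter and in 4 of 8 omissions. By limma the number of genes called higher among the 8 was 2. It became 1 without a filter, 0 with the non-epithelial covariate and 0 with the posterior Hox covariate. Over the omissions of single libraries it ran from 1 to 3. At an unadjusted p under 0.05, in either direction, there were 4 with the non-epithelial and 3 with the Hox covariate. With the Hox covariate the estimates largest against their SE were Cyba at 0.34 ± 0.12, Duox2 at -0.52 ± 0.20 and Noxo1 at -0.34 ± 0.12, so not all were higher. The number called lower was 0 throughout. Estimates that changed sign were, with the posterior Hox covariate, Duox2 at -0.52, Duoxa2 at -0.16, Noxa1 at -0.042, Noxo1 at -0.34 and Rac1 at -0.022, and for Noxo1 also -0.039 in the scaling without mitochondrial genes and -0.018 and -0.088 without WT replicate 2 and PIM1+/- replicate 1 (range -0.088 to 0.077). The cause was not tested. Over all tested genes 1139 were higher and 1090 lower (51.1% higher). Lower genes numbered 666 without a filter, where more genes were tested, and 689 with the replicate block. The scaling without mitochondrial genes gave 857 higher and 1565 lower (35.4% higher). With the non-epithelial covariate limma called 0 higher and 0 lower (1497 genes at an unadjusted p under 0.05), and with the Hox covariate 97 and 29. Without 1 library, where fewer samples enter, higher genes ran from 746 to 1004 and lower genes from 616 to 1054, with the fewest higher without WT replicate 4 (746) and lower genes at 616, 690 and 689 without WT replicates 1, 3 and 4. The replicate block left 2 of the 8 genes called higher and changed no call among them. Same-numbered libraries correlated at -0.136, 0.032, -0.0332 and -0.071 in their deviations from the genotype means, so the numbers are not taken as pairs. The unknown depth limits Nos2 most, whose WT values are near 1 TPM.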
